A study of Mus musculus with 8 samples.

Results

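The activin and inhibin genes comprised 9 of the 18193 genes measured with a probe set of a single gene symbol. They were chosen by symbol and are the subunit genes Inhbb, Inhba and Inha, the follistatin genes Fst and Fstl3, and the receptor genes Acvr1, Acvr1b, Acvr2a and Acvr2b. Together they had 18 probe sets of the 45037 tested, and 1 further probe set that carries the symbols Orc4 and Acvr2a was left out. The family was taken up because Inhbb had the largest fall of all genes, so the values of Inhbb are described below and no test of them is given. RNA of R1/E cells, a feeder-free line of mouse embryonic stem cells (ESCs), was hybridised to 4 arrays after transfection with Rad21 esiRNA and to 4 arrays after transfection with Luc control esiRNA. An esiRNA is an enzymatically made pool of short interfering RNAs, Rad21 encodes one of the proteins that form the cohesin ring, and luciferase (Luc) has no target in mouse cells. All 8 samples were R1/E ESC total RNA taken 48 h after transfection of 80000 cells per well with 800 ng of esiRNA, and the methods give gelatin-coated dishes with serum and LIF as the culture of this line. The labels call the arrays biological replicates 1 to 4 and do not say which of the study's independent Rad21 esiRNAs they received.

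Activins are dimers of beta subunits, made from Inhba (beta A) and Inhbb (beta B), and inhibins pair a beta subunit with the alpha subunit from Inha. Activins bind the type II receptors encoded by Acvr2a and Acvr2b, which then phosphorylate a type I receptor, chiefly that encoded by Acvr1b, and the signal passes through Smad2 and Smad3. Follistatins bind activins outside the cell and block them, inhibins compete for the type II receptors, and mouse ESCs are known to signal through the same receptors in response to Nodal.

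The values are on the log2 scale after GCRMA, which corrects background by the GC content of the probes and draws dim probe sets to a low plateau. A mean under 4 is called dim here, and a gene is given by its probe set with the highest mean over all arrays. An adjusted p under 0.05 in limma, corrected over all 45037 probe sets, was taken as a call, and 22.6% of genes were called at this threshold. The targeted transcript, at its brightest probe set, had 11.69, 11.75, 12.37 and 12.52 in the RAD21 knock-down against 13.62, 13.42, 13.83 and 13.79 in the Luc control, a fall to 33.4% (limma adjusted p = 0.00222), and its other 2 probe sets had log2 changes of -2.59 (adjusted p = 1.64e-04) and -0.98 (adjusted p = 0.0114). Array medians lay between 3.08 and 3.16. All 7 ESC markers examined had means between 11.3 and 15.9, and 5 of them fell, where 12.6% of all genes fell. Sox2 (-0.01, limma adjusted p = 0.972) and Tdgf1 (0.12, adjusted p = 0.116) did not pass the test. Of 7 fibroblast markers 6 were dim in both groups and 1, Thy1, fell (-0.56, limma adjusted p = 0.0248, groups not overlapping). The Thy1 means, 3.96 in the knock-down and 4.53 in the Luc control, lay near the dim level. Among the 6, Col3a1 had 4.69, 4.25, 3.11 and 3.42 in the knock-down and a mean of 3.07 in the Luc control. Its difference of 0.8 did not pass the test (limma adjusted p = 0.189, groups overlapping). In replicates 1 and 2 alone it was 1.35 and called (adjusted p = 0.0127). In replicates 3 and 4 alone it was 0.25 (adjusted p = 0.346). Dim in both groups were 5 of 5 measured markers of inhibin-producing gonadal cells. Of 6 endoderm markers 5 were dim in both groups and 1, Foxa2, rose, with 7.06 to 7.80 in the knock-down and 2.75 to 2.79 in the Luc control. The summed linear signal of the endoderm markers was 172 to 265 in the knock-down and 43.3 to 44.4 in the Luc control. The 5 other endoderm markers had differences of -0.01 to 0.16 without a call, so the higher sum reflects Foxa2. The summed linear signal of the ESC markers was 169000 to 176000 in the knock-down and 201000 to 208000 in the Luc control. The sums overlapped for the fibroblast markers (56.6 to 70.7 in the knock-down, 59.4 to 64.6 in the Luc control) and the gonadal markers (30.0 to 31.8 in the knock-down, 29.7 to 30.3 in the Luc control). The part of these shifts in the values below was not tested, and in bulk RNA fewer cells of a type and less RNA per cell cannot be told apart.

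Inhbb, which encodes the activin beta B subunit, was nearly lost from the RAD21 knock-down. Its brightest probe set had 3.40, 3.77, 4.57 and 5.28 in knock-down replicates 1 to 4, against 8.69, 8.88, 9.33 and 9.46 in Luc control replicates 1 to 4. Every knock-down array lay far below every Luc array, and in both groups replicates 1 and 2 were lower than replicates 3 and 4. The means were 4.26 ± 0.84 in the knock-down and 9.09 ± 0.37 in the Luc control (SD, n = 4 each), a log2 change of -4.83. This left 3.51% of the control signal on the linear scale, a 28.5-fold lower value. Since knock-down replicates 1 and 2 were dim, where GCRMA compresses values, the size of the fall is not settled. The change was -5.20 in replicates 1 and 2, where Rad21 changed by -1.80, and -4.47 in replicates 3 and 4, where Rad21 changed by -1.36. A relation between the changes of Inhbb and Rad21 was not tested. The genes with the next largest falls were Slc11a1 (-3.17) and Lrrc31 (-2.98). The second Inhbb probe set had 2.16, 2.12, 2.16 and 2.17 in the knock-down and 2.21, 2.13, 2.70 and 2.27 in the Luc control. It was dim on all 8 arrays, and its groups overlapped.

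Promoter sequence is given for Inhbb, which carried the largest change, and for the receptor genes Acvr1b and Acvr2a, whose values moved in opposite directions as described below. The 250 bases before the RefSeq start are shown on the strand of the gene, 5′ to 3′, with coordinates of GRCm38.p6, and capitals mark the Smad-binding motif CAGAC or its reverse GTCTG.
Inhbb, chr1:119422249-119422498, minus strand: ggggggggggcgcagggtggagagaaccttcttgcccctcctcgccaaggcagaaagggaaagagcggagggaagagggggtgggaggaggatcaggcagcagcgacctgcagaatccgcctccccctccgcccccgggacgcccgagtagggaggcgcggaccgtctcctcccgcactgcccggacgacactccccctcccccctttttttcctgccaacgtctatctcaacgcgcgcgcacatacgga
Acvr1b, chr15:101173822-101174071, plus strand: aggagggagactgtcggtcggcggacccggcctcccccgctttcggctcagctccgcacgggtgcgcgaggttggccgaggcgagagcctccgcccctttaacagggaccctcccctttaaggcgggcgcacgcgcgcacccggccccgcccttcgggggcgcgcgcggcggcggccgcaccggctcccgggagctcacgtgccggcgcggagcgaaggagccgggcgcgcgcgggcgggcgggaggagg
Acvr2a, chr2:48813859-48814108, plus strand: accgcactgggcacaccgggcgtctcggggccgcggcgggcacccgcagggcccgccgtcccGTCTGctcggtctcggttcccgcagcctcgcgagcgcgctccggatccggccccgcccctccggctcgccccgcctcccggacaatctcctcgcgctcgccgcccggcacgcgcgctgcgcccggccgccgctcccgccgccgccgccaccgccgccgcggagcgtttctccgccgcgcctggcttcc
RefSeq promoters were matched for 8 of the 9 genes. The Smad motif, searched on both strands, was present in 42.2% of all 32851 promoters in windows of this length and had 1 match in Acvr2a, beginning 188 bases before the start, and no match in the Inhbb and Acvr1b windows. Of the other matched genes Fstl3 had 2 matches, Inha and Acvr2b had 1 each, and Acvr1 and Inhba had none. The Foxh1 motif AATCCACA or its reverse TGTGGATT, present in 0.718% of promoters, and TATAAA on the strand of the gene, present in 7.59%, had no match in these 3 windows. CG dinucleotides numbered 21 in Inhbb, 42 in Acvr1b and 49 in Acvr2a, against a median of 6 over all promoters, and 16.3% of promoters had at least as many as Inhbb. These matches describe the letters only and carry no information on binding.

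The other subunit genes had no signal above the dim plateau in these cells. Inhba, which encodes the beta A subunit, had 2.50, 2.49, 2.49 and 2.54 in the knock-down and 2.51, 2.46, 2.52 and 2.50 in the Luc control at its brighter probe set, a difference of 0.01 with an interval from -0.05 to 0.06 (limma adjusted p = 0.950). Its other probe set stood at 2.00 to 2.03 in the knock-down and 1.98 to 2.04 in the Luc control. Inha, which encodes the alpha subunit of the inhibins, had 1.88, 1.87, 1.87 and 1.89 in the knock-down and 1.89, 1.89, 1.92 and 1.87 in the Luc control (difference -0.02, interval -0.06 to 0.02, limma adjusted p = 0.719). On these arrays Inhbb was thus the subunit gene of the family with signal in the Luc control, and at dim probe sets a change cannot be read.

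**Figure D1:**
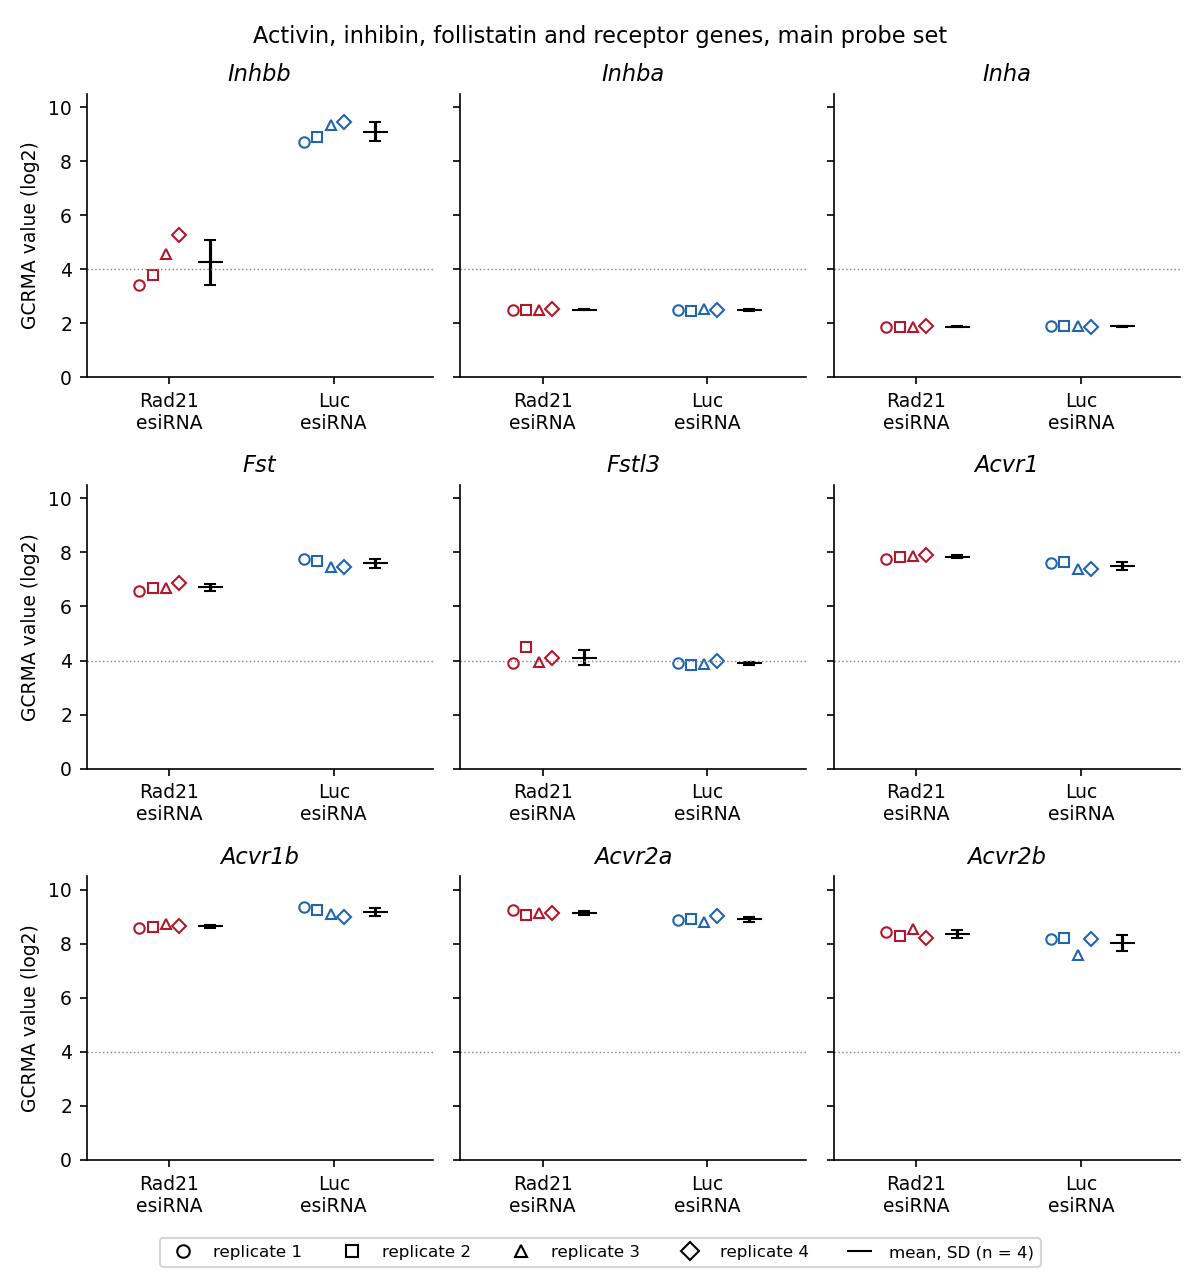
GCRMA values (log2) of the 9 genes at their main probe set on each of the 8 arrays, Rad21 esiRNA left of Luc esiRNA; symbols are replicates, black bars the mean and SD (n = 4), and the dotted line the dim level of 4. Inhbb stands at 3.40 to 5.28 in the knock-down and 8.69 to 9.46 in the Luc control, while Inhba and Inha lie below the line on every array.

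Of the follistatin genes, Fst fell and Fstl3 did not pass the test. Fst, which encodes the secreted activin antagonist follistatin, had 6.57, 6.69, 6.70 and 6.86 in the knock-down and 7.77, 7.67, 7.45 and 7.47 in the Luc control. The highest knock-down array lay below the lowest Luc array. The fall measured -0.88 ± 0.09 on the log2 scale (SE, limma adjusted p = 6.78e-04), which left 54.2% of the control signal. A second Fst probe set gave 4.88, 4.72, 4.77 and 5.05 in the knock-down against 5.98, 6.09, 5.57 and 5.93 in the Luc control, a log2 change of -1.04 ± 0.12 (limma adjusted p = 0.00125). Its groups did not overlap either, and within replicates 3 and 4 alone its call was lost (-0.84, adjusted p = 0.0982). Fstl3, a related antagonist gene, was near the dim level, with 3.89, 4.51, 3.94 and 4.10 in the knock-down and 3.92, 3.82, 3.87 and 3.97 in the Luc control (difference 0.21, interval -0.09 to 0.52, limma adjusted p = 0.438). Its groups overlapped, and knock-down replicate 2 was its highest array.

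The type I receptor genes moved apart. Acvr1b, which encodes ALK4, the main type I receptor for activin and Nodal, had 8.58, 8.62, 8.72 and 8.65 in the knock-down and 9.36, 9.24, 9.11 and 9.0 in the Luc control. All knock-down arrays were below all Luc arrays, and the log2 change was -0.54 ± 0.08 (SE, limma adjusted p = 0.00327), a level of 68.9% of the control. Replicates 1 and 2 alone gave -0.70, whereas replicates 3 and 4 alone gave -0.37, where the call was just lost (adjusted p = 0.0501). Acvr1, which encodes ALK2, a type I receptor used mainly by BMPs, had 7.76, 7.84, 7.86 and 7.91 in the knock-down and 7.60, 7.63, 7.38 and 7.38 in the Luc control. Again the groups did not overlap, and Acvr1 rose by 0.34 ± 0.07 on the log2 scale (SE, limma adjusted p = 0.0141). The rise was 0.18 in replicates 1 and 2 (adjusted p = 0.112) and 0.50 in replicates 3 and 4 (adjusted p = 0.0106). A second Acvr1b probe set and 2 further Acvr1 probe sets were dim on every array, at 1.91 to 2.53, with groups that overlapped.

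Of the type II receptor genes Acvr2a rose, by an amount that differed with the probe set, and Acvr2b did not pass the test. At its brightest probe set Acvr2a had 9.23, 9.06, 9.13 and 9.14 in the knock-down and 8.87, 8.92, 8.80 and 9.01 in the Luc control. The groups were separated only narrowly, by a gap smaller than the range of either. This rise of 0.24 ± 0.05 (SE, limma adjusted p = 0.0222) was called neither within replicates 1 and 2 (0.25, adjusted p = 0.128) nor within replicates 3 and 4 (0.23, adjusted p = 0.255). Its call was also lost without knock-down replicate 1 (adjusted p = 0.0549) or 4 (0.0565) or Luc replicate 1 (0.0633). The other Acvr2a probe set had 7.97, 7.59, 7.84 and 7.90 in the knock-down and 7.13, 7.07, 6.61 and 6.87 in the Luc control. These groups lay further apart. The rise was 0.91 ± 0.13 on the log2 scale (SE, limma adjusted p = 0.00335), equal to 187% of the control, with changes of 0.68 (adjusted p = 0.0531) in replicates 1 and 2 and 1.13 (adjusted p = 0.0228) in replicates 3 and 4. Acvr2b had 8.42, 8.29, 8.55 and 8.19 in the knock-down and 8.17, 8.20, 7.57 and 8.17 in the Luc control. The difference of 0.34 had an interval from -0.03 to 0.70 (limma adjusted p = 0.256), the groups overlapped, and Luc replicate 3 stood apart as the lowest array. Its other 2 probe sets were dim, at 2.39 to 2.51 in the knock-down and 2.42 to 2.63 in the Luc control.

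Among the 8 genes other than Inhbb, 2 rose (Acvr1 and Acvr2a), 2 fell (Fst and Acvr1b) and 4 did not pass the test. Over all 18193 genes 10.1% rose and 12.6% fell, together the 22.6% called. Of genes not dim in both groups 38.7% were called, and among the 8 genes Inhba and Inha were dim in both. With 8 genes a difference from these shares was not tested. The median log2 change of these 8 genes was 0.11, against 0.00 over all genes. The groups did not overlap at the main probe set of 4 of the 8, a pattern that 27.8% of all genes and 19.4% of all probe sets showed. Over single probe sets 3 rose and 3 fell of the 16 outside Inhbb, where 14.9% of all probe sets were called, 6.47% as rises and 8.4% as falls.

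**Figure D2:**
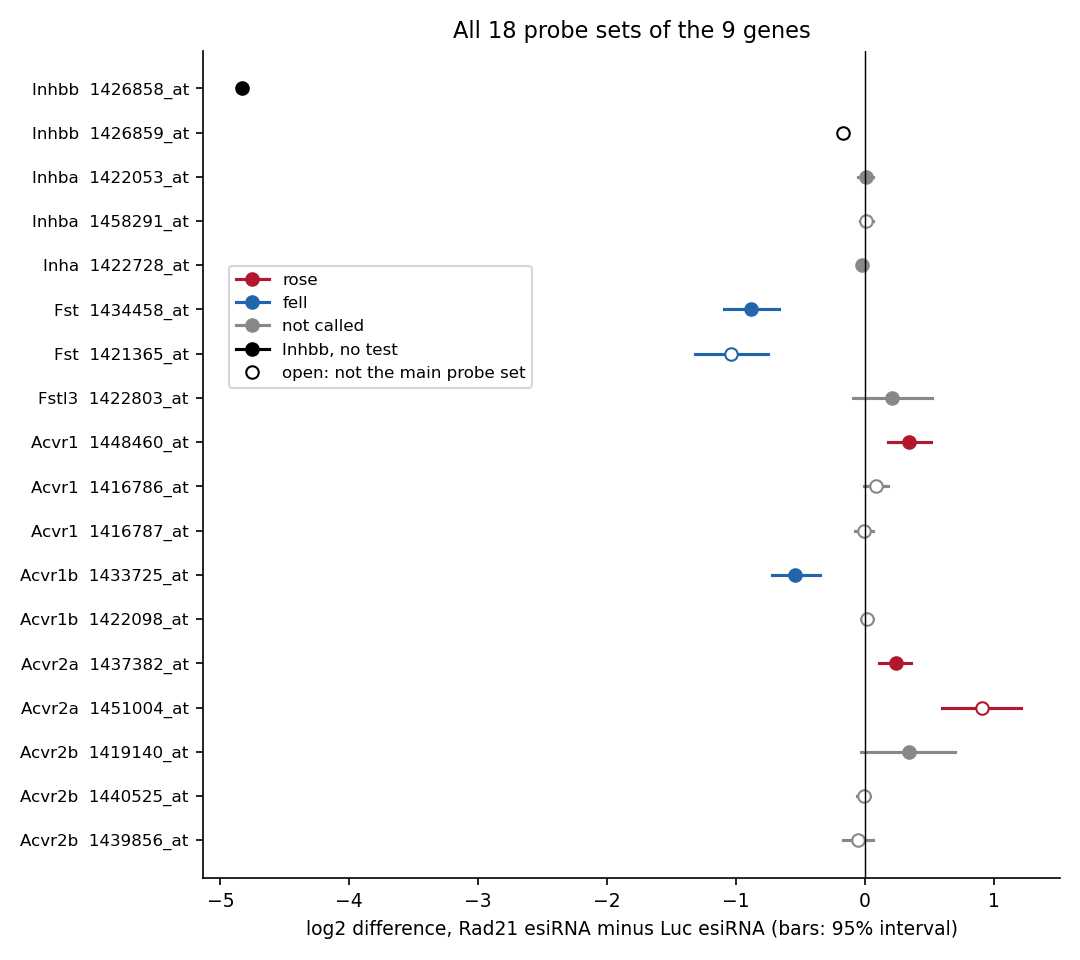
Log2 difference (Rad21 esiRNA minus Luc esiRNA, 4 arrays each) at all 18 probe sets of the 9 genes, with its 95% interval except for Inhbb, which is given as a description; filled points are main probe sets and open points the others. Inhbb lies at -4.83, both Fst probe sets and Acvr1b lie left of 0, Acvr1 and both Acvr2a probe sets right of 0, and the dim probe sets close to 0.

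Other genes of the pathway were read from a list of 39 genes, of which 36 were measured. Of these 9 rose, 1 fell and 26 did not pass the test, with 13 dim in both groups, and the median log2 change was 0.00. Over all genes 10.1% rose and 12.6% fell, and 38.7% of genes not dim in both groups were called. The total of 10 calls among 36 genes lies near the background. By direction the 9 rises and 1 fall are unlike the shares over all genes, a difference that was not tested. The list was chosen with earlier results of these data known, and the split varied with the setting. With the replicate number as a block 6 rose and 3 fell, and in replicates 3 and 4 alone 7 rose and 3 fell. Among ligands that use the same receptors, Nodal had 12.45, 12.53, 12.24 and 12.24 in the knock-down and 11.48, 11.64, 11.46 and 11.50 in the Luc control. Every knock-down array lay above every Luc array, a rise of 0.85 ± 0.08 (SE, limma adjusted p = 4.32e-04). Gdf3, a relative of Nodal, rose by 0.23 (adjusted p = 0.0297), a call lost without any one of knock-down replicates 1, 2 and 3 and Luc replicates 1 and 2 (highest adjusted p = 0.0824). The other beta subunit genes Inhbc and Inhbe were dim, with means of 2.62 and 2.01 in the knock-down and 2.65 and 2.05 in the Luc control.

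The Lefty genes encode secreted inhibitors of Nodal that are themselves induced by Smad2/3 signalling. Lefty1 had 13.05, 13.00, 12.51 and 12.43 in the knock-down and 11.57, 11.41, 10.19 and 10.31 in the Luc control, a rise of 1.88 ± 0.36 (SE, limma adjusted p = 0.0109). Lefty2 had 11.15, 11.20, 10.62 and 10.58 in the knock-down and 10.08, 9.91, 8.61 and 8.41 in the Luc control. It rose by 1.64 ± 0.42 (SE, adjusted p = 0.0382), and replicates 3 and 4 were lower than replicates 1 and 2 in both groups. The call of Lefty2 was lost without any single array other than Luc replicates 1 and 2 (highest adjusted p = 0.102). Probes of these close paralogs may bind transcripts of both genes. In the signalling cascade Foxh1, which encodes a DNA-binding partner of Smad2 and Smad3, rose by 0.98 ± 0.08 (adjusted p = 2.56e-04, a probe set of the _s_at kind, which can match several transcripts). Fkbp1a, which encodes a protein that binds type I receptors, rose by 0.20 (adjusted p = 0.00347) and Smad4, the common partner of the signalling Smads, by 0.16 (adjusted p = 0.0127), both without a call in replicates 1 and 2 or 3 and 4 alone (lowest adjusted p = 0.0615). With the mean of its probe sets Smad4 stood at 0.05 and was not called (adjusted p = 0.191). Skil, a Smad-responsive repressor gene, rose by 0.51 ± 0.07 (adjusted p = 0.00199), the call among the 5 genes listed as Smad2/3-responsive, a group that leaves out the Lefty genes because they were listed as antagonists. Pmepa1, another gene of that group, named after its values were seen, had 8.45, 8.28, 8.01 and 8.15 in the knock-down and 8.62, 8.73, 8.47 and 8.49 in the Luc control. Its groups did not overlap, and the difference of -0.35 did not pass the test (adjusted p = 0.0579) but did in replicates 3 and 4 alone (-0.40, adjusted p = 0.0492). Eomes, of the same group and also named after its values were seen, had a difference of -0.06 (limma adjusted p = 0.943). It was -0.49 in replicates 1 and 2 alone (adjusted p = 0.00791) and 0.36 in replicates 3 and 4 alone (adjusted p = 0.185). Bmpr2, a type II receptor gene, rose by 0.24 (adjusted p = 0.0169), which was 0.05 and not called with the mean of all its probe sets (adjusted p = 0.513).

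The fall called in the list was that of Pcsk6, which encodes PACE4, a convertase that cuts precursors of this ligand family. It had 4.78, 4.67, 4.96 and 4.90 in the knock-down and 6.47, 6.42, 6.31 and 6.29 in the Luc control. The groups were widely separated, and the fall of Pcsk6 (-1.54 ± 0.07 SE on the log2 scale, limma adjusted p = 2.54e-05) left 34.3% of the control signal. Tgfbr3, named here after its values were seen, encodes betaglycan, the co-receptor of inhibin. It had 5.23, 4.90, 5.25 and 5.30 in the knock-down and 4.11, 4.72, 2.52 and 3.27 in the Luc control. Its groups did not overlap, but its Luc arrays were widely scattered, and the difference of 1.51 ± 0.44 (SE) did not pass the test (limma adjusted p = 0.0635). It was 0.65 in replicates 1 and 2 (adjusted p = 0.219) and 2.38 in replicates 3 and 4, where it was called (adjusted p = 0.0377). With replicates 1 and 2 against 3 and 4 as a block, or with array weights, 11 genes of the list rose and 3 fell.

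**Figure D3:**
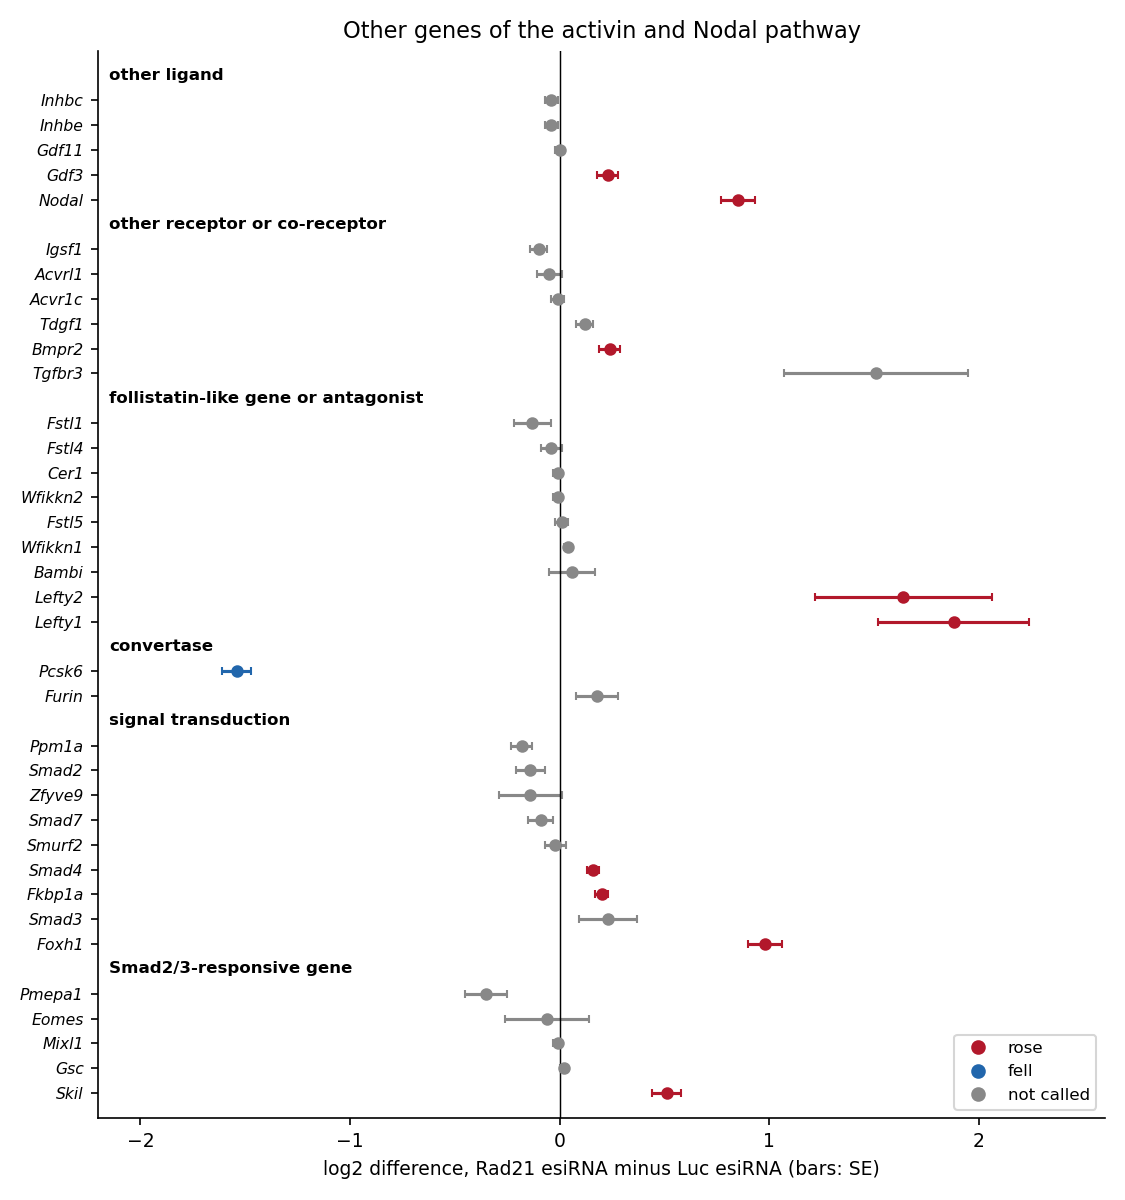
Log2 difference (Rad21 esiRNA minus Luc esiRNA, 4 arrays each, bars show the SE) of the 36 measured pathway genes outside the family, grouped by role; colours mark calls. Lefty1 (1.88) and Lefty2 (1.64) lie furthest to the right among called genes, Pcsk6 (-1.54) is the call on the left, and most other genes lie close to 0.

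The neighbours of Inhbb on its chromosome were taken as the 5 nearest measured genes on either side in the RefSeq order. Of these 10 genes 1 rose, 2 fell and 7 did not pass the test, with 22.6% of all genes and 38.7% of genes that were not dim in both groups called. The 3 calls among 10 genes lie near these shares. Gli2, a Hedgehog pathway transcription factor gene next to Inhbb on the side of lower coordinates, had 10.31, 10.36, 10.33 and 10.23 in the knock-down and 11.05, 11.27, 11.29 and 11.37 in the Luc control, which left 52.2% of the control signal (-0.94 ± 0.07 SE, limma adjusted p = 1.65e-04). Tfcp2l1, a transcription factor gene of naive ESCs and the next gene in that direction, had 10.74, 10.78, 10.40 and 10.32 in the knock-down and 12.36, 12.36, 11.93 and 12.05 in the Luc control, which left 32.7% (-1.61 ± 0.14 SE, adjusted p = 4.06e-04). In both genes all knock-down arrays lay below all Luc arrays. With the mean of all its probe sets the fall of Tfcp2l1 was smaller, at -0.53, and was called (limma adjusted p = 2.09e-04). Clasp1, a microtubule regulator gene beyond them, rose by 0.36 ± 0.07 (adjusted p = 0.0113), and with the mean of its probe sets the difference was 0.16 and not called (adjusted p = 0.0577). Nifk and Tsn, further out on that side, had differences of 0.00 and -0.13 and did not pass the test. Ralb, the first gene on the other side, encodes a small GTPase and had a difference of -0.38 ± 0.11 (SE, adjusted p = 0.0707), which did not pass the test although its groups did not overlap. Beyond it Tmem185b (-0.13), Epb41l5 (0.34), Ptpn4 (-0.11) and Tmem177 (-0.35) did not pass the test.

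**Figure D4:**
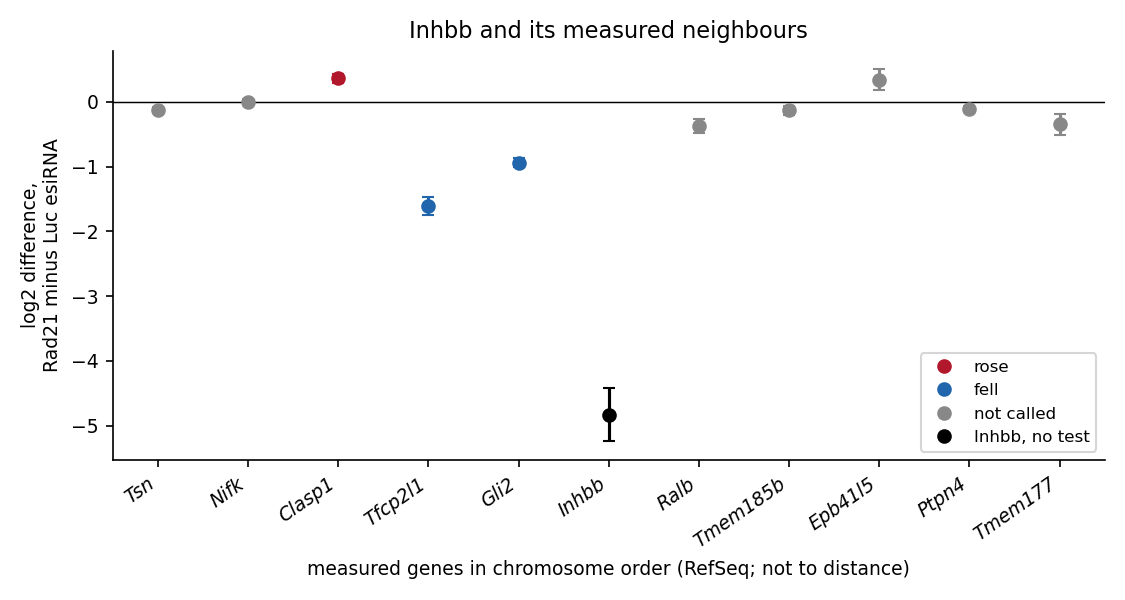
Log2 difference (Rad21 esiRNA minus Luc esiRNA, 4 arrays each, bars show the SE) of Inhbb and the 5 nearest measured genes on either side, in chromosome order with even spacing. Tfcp2l1 (-1.61) and Gli2 (-0.94) fell beside Inhbb (-4.83), and Ralb on the other side (-0.38) was not called.

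The genes whose profile over the 8 arrays was closest to that of Inhbb were Slc11a1, Hopx and Ceacam1. Closeness was the root mean square difference of the 8 log2 values, each taken relative to the Luc mean of its own gene, and it was 1.28 for Slc11a1, 1.43 for Hopx and 1.54 for Ceacam1. Slc11a1, which encodes a metal ion transporter, had 3.43, 4.05, 3.65 and 3.83 in the knock-down and 6.78, 6.53, 7.15 and 7.18 in the Luc control. Hopx, which encodes a homeodomain-only protein, had 4.40, 4.50, 5.95 and 6.09 in the knock-down and 8.31, 8.28, 7.91 and 7.97 in the Luc control. Like those of Inhbb, its knock-down arrays were lower in replicates 1 and 2 than in replicates 3 and 4. Ceacam1, which encodes a cell adhesion molecule, had 5.81, 5.54, 6.38 and 6.03 in the knock-down and 8.96, 8.83, 8.61 and 8.55 in the Luc control. All 3 differences were smaller than that of Inhbb, with log2 changes of -3.17, -2.88 and -2.80, and because the genes were picked for this pattern no test is given.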

How the data were processed

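Total RNA of R1/E ESCs was hybridised to 8 Affymetrix Mouse Genome arrays. The deposited log2 values of probe sets were made by the authors with GCRMA in Partek Genomics Suite (Partek 6.4 in the submitters' processing notes). Its quantile step makes the arrays alike in their distribution of values, and a global shift of RNA amount is therefore not measured. Of 45101 probe sets 64 controls were left out. Symbols came from the platform annotation, and a single one was given for 34945 probe sets, or 18193 genes. The knock-down was compared with the Luc control by limma 3.58.1 (lmFit and eBayes, R 4.3.3, statmod 1.5.0), two-sided, without a block, with Benjamini-Hochberg adjustment over the other 45037. Figures were drawn with matplotlib 3.10.9. The methods' analysis of variance was an alternative. The members and lists were chosen with earlier results of these data known. Named genes are all members, Rad21, called genes of the pathway list, the 5 measured neighbours of Inhbb on either side and the 3 closest profiles. Inhbc, Inhbe, Pmepa1, Eomes and Tgfbr3, and the markers Foxa2, Thy1, Col3a1, Sox2 and Tdgf1, were added after their values were seen. Same-numbered arrays were checked for pairing, and the test was checked on simulated data. The number of arrays, 4 per group, limits precision, and p-values weigh a group difference against the spread between arrays within the groups. RefSeq (GRCm38.p6) supplied gene order, with 18031 genes matched by Entrez ID, and promoter sequences.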

Additional observations from a re-analysis of the deposited data

Results flagged for a closer look

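In groups of 4 arrays, single arrays stood apart from the others at 7 of 88 groups examined, where chance flags about 1 in 20. Acvr2b had 7.57 on Luc replicate 3, against 8.17 to 8.20 on the other Luc arrays, and a dim Acvr2b probe set had 2.63 on Luc replicate 2, against 2.42 to 2.45. Among pathway genes, Foxh1 had 9.65 on knock-down replicate 1 (others 9.60 to 9.61) and Skil 13.44 on knock-down replicate 3 (others 13.36 to 13.37), whereas Smad4 had 12.03 on Luc replicate 1 (others 11.96 to 11.97). Among neighbours of Inhbb, Tmem185b had 9.95 on knock-down replicate 2 (others 9.98 to 9.99) and Clasp1 11.65 on Luc replicate 1 (others 11.74 to 11.75).

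The change differed between replicates 3 and 4 and replicates 1 and 2 for 2 genes by an interaction term in limma adjusted over all probe sets. Lefty2 rose by 2.09 in replicates 3 and 4 and by 1.18 in replicates 1 and 2, a difference of 0.91 (adjusted p = 0.0482). Hopx changed by -1.92 in replicates 3 and 4 and by -3.85 in replicates 1 and 2, a difference of 1.92 (adjusted p = 0.00960). The labels name no batch for these replicate sets.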

How the results depend on the processing

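The main count of 4 called genes among the 8 other than Inhbb was 2 with the replicate block (Acvr1, adjusted p = 0.0621, and Acvr2a, adjusted p = 0.0581, lost), 2 in replicates 1 and 2 alone, 2 in replicates 3 and 4 alone, 2 at an adjusted p under 0.01 and 3 with the plain analysis of variance (Acvr2a lost, adjusted p = 0.0509). Without single arrays it was 3 to 4. Same-numbered arrays correlated in their deviations from the group means with 0.02, 0.13, 0.07 and 0.13, and not every array was closest to its own number, so the numbers were not taken as pairs. All 8 pairs of a knock-down and a Luc array within replicates 1 and 2 or within 3 and 4 correlated above 0 (0.02 to 0.20) and all 8 pairs across these sets below 0 (-0.19 to -0.04), and blocking on these sets gave 8177 called probe sets in all. The replicate block moved the count over all probe sets to 6224 from 6697 and also lost the calls of Gdf3 (adjusted p = 0.104), Smad4 (0.0617) and Bmpr2 (0.0535). That count was 3893 at an adjusted p under 0.01, 8364 at one under 0.1, 7462 with array weights and 4592 in replicates 3 and 4 alone, and without single arrays 5395 to 6210. When each of the 18193 genes was averaged over its probe sets, 4457 genes were called, against 4116 genes by the brightest probe set. Centring on bright probe sets gave 3385 rises and 3390 falls, against 2913 and 3784. The called pathway genes numbered 5 instead of 10 at an adjusted p under 0.01, 14 with the sets as a block, 14 with array weights, and 8 to 10 without single arrays, and Lefty2 (adjusted p = 0.0868) and Gdf3 (0.0643) lost their calls with the plain analysis of variance. The called neighbours of Inhbb numbered 5 instead of 3 with replicates 1 and 2 against 3 and 4 as a block, and 3 to 4 without single arrays. The change of Inhbb ranged from -5.20 (replicates 1 and 2 alone) to -2.50 (the mean of its 2 probe sets, 1 of them dim). The brightest Fst probe set kept its call under all alternatives run. Dim probe sets limit what can be read for Inhba and Inha.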
